A study of Mus musculus with 18 samples.

Results

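The 10 genes described here encode transcription factors of the immediate early response, namely the FOS family (Fos, Fosb, Fosl1 and Fosl2), the JUN family (Jun, Junb and Jund), the zinc finger factors Egr1 and Egr2, and the nuclear regulator Ier2. They were taken by symbol from the 18204 genes in the table, and each symbol matched 1 row. The choice was made with earlier results of these data known, so that setting the 10 against all genes is a description and not an independent test. RNA sequencing covered 18 samples of J774.1, a mouse cell line with macrophage properties, with 3 samples in each of 6 groups. Wildtype cells and cells carrying frameshift mutations of both Ctbp1 and Ctbp2 (Ctbp1/2dKO, here dKO) received a PBS/DMSO vehicle, MTOB at 1.5 mM or the compound 4-Cl-HIPP at 250 µM, each over 4 h, and 1 vehicle group per genotype served both inhibitors. MTOB, a keto acid, and 4-Cl-HIPP, a chlorinated oxime acid, bind in the dehydrogenase pocket of the transcriptional corepressors CTBP1 and CTBP2. The cell lines were grown out from single cells after CRISPR editing, and the number of clones behind each genotype is not given in the sources used here, so that a difference between genotypes and one between clones cannot be told apart.

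FOS and JUN proteins carry a basic region and a leucine zipper and bind DNA as pairs, together called AP-1. JUN proteins pair among themselves or with FOS proteins, whereas FOS proteins need a JUN partner. Most of these genes are switched on within minutes of a stimulus by MAP kinases acting on factors already present in the cell, and their mRNAs are short-lived. The samples here were taken at 4 h alone, so changes at earlier times were not measured. In macrophages AP-1 takes part in the induction of cytokines, proteases and adhesion genes, and EGR factors in macrophage differentiation and alternative activation.

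Values are named scaled TPM in the deposited table and were read as TPM, a measure of transcript abundance, since each sample sums to nearly the same total. They are scaled to gene length and to a common total, so that levels of different genes may be compared while the read depth of each sample is unknown. All 7 macrophage markers checked, Csf1r and Cd68 among them, exceeded 1 TPM in every sample. Of these, 2 differed between genotypes without overlap of the 9 samples each, Adgre1 at 24.6 to 107 TPM in wildtype and 6.70 to 13.7 TPM in dKO cells, and Itgam at 11.3 to 21.0 TPM and 34.6 to 65.3 TPM. Their part in the genotype differences was not tested. Of 13 markers of fibroblasts, T cells, B cells and epithelium, 5 were listed, and the highest value of any was 2.07 TPM, for Cd3d. Ctbp1 lay between 170 and 238 TPM in the 9 wildtype samples and between 19.7 and 31.5 TPM in the 9 dKO samples, and Ctbp2 between 87.8 and 96.9 TPM and between 68.5 and 81.9 TPM. These are mRNA levels, and the study reported loss of both CTBP1 and CTBP2 protein by western blot. Between replicates, Pearson's r over genes lay between 0.983 and 0.987. In bulk RNA, a change in the cells that express a gene and a change in RNA per cell cannot be told apart.

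All 10 genes passed the expression filter, but their levels spanned a wide range. Over the 18 samples the mean was 97.2 TPM for Junb, 81.9 TPM for Jund, 26.9 TPM for Ier2, 23.8 TPM for Jun, 13.1 TPM for Fos, 11.8 TPM for Fosl1 and 7.97 TPM for Fosl2. Egr2 (0.647 TPM), Fosb (0.559 TPM) and Egr1 (0.0448 TPM) were close to the lower limit, with mean normalized counts of 7.50, 9.69 and 0.652. In wildtype cells with vehicle the order was the same down to Jun, with Ier2 (26.5 to 27.9 TPM) just above Jun (21.1 to 26.2 TPM). Fos (6.28 to 8.23 TPM), Fosl1 (4.59 to 6.97 TPM) and Fosl2 (5.25 to 6.52 TPM) overlapped and could not be ranked.

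**Figure D1:**
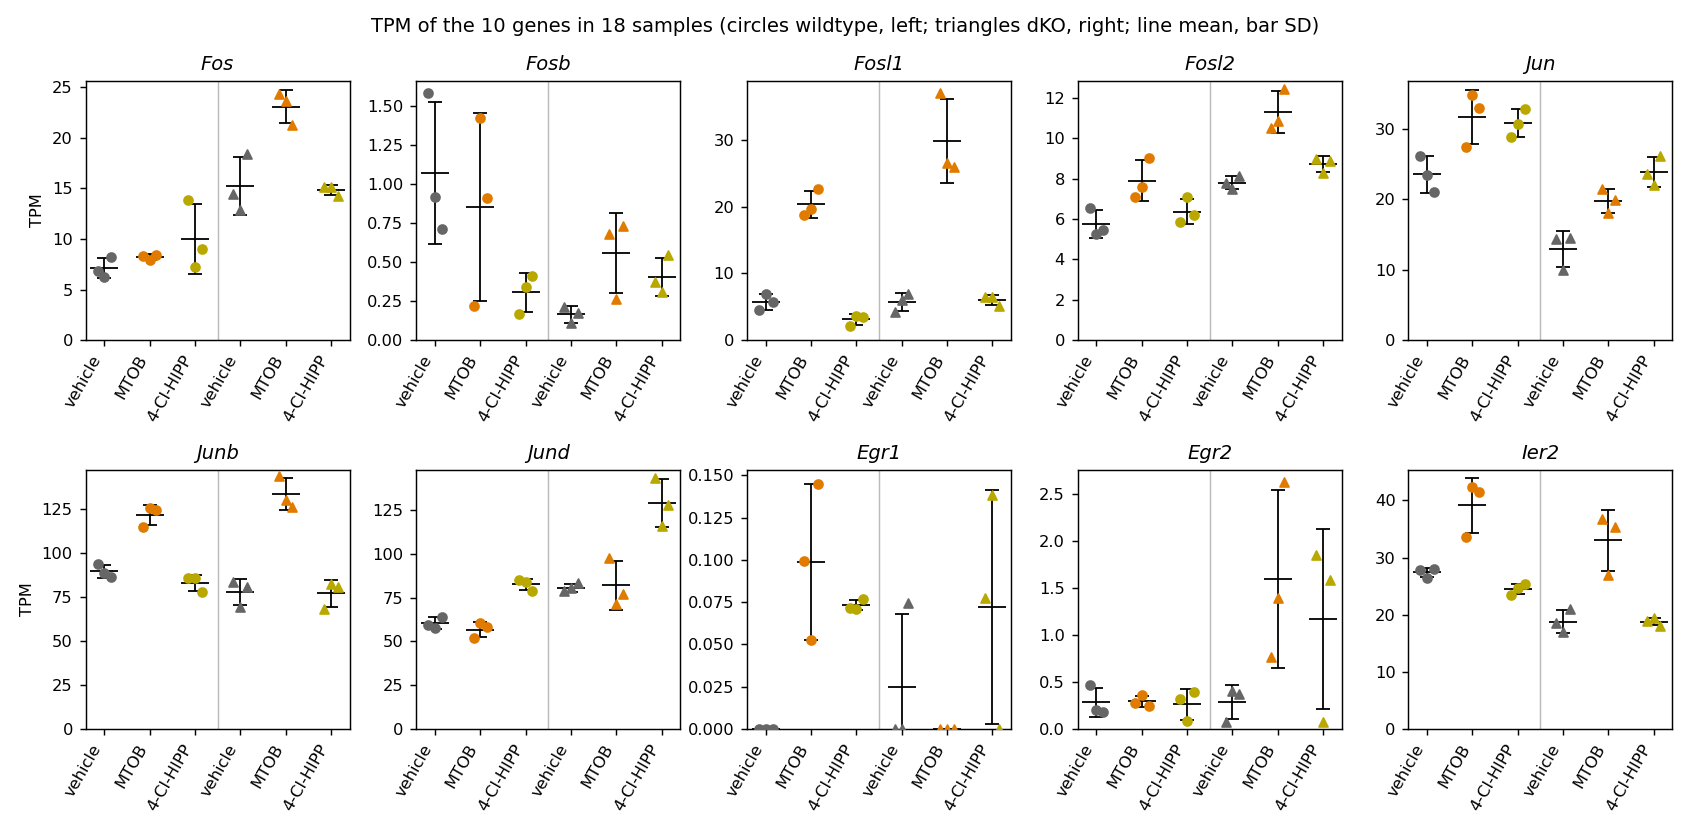
TPM of each of the 10 genes (vertical axes, linear from 0) in the 6 groups, with circles for wildtype and triangles for dKO samples, a line at the group mean and bars of 1 SD over 3 samples. Fosl1 stands at 18.8 to 37.1 TPM in the 6 MTOB samples and at 2.16 to 6.97 TPM in the other 12, Fos has its highest means in dKO cells, and Jund is highest in dKO cells with 4-Cl-HIPP.

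The groups were compared by limma, fitted to log2(TPM + 1) of 16383 genes, and a gene was called when its p-value, adjusted after Benjamini and Hochberg, was under 0.05 and its change larger than 1.5-fold. Of the 10 genes, 1 was called with MTOB and 0 with 4-Cl-HIPP in wildtype cells, against 2.01% and 0.140% of all genes tested. In dKO cells 4 were called with MTOB and 2 with 4-Cl-HIPP, against 1.63% and 0.153% of all genes. All 7 of these calls were increases, and increases alone made up 1.56% of all genes with MTOB in wildtype, 1.15% with MTOB in dKO and 0.122% with 4-Cl-HIPP in dKO cells. With 4-Cl-HIPP in wildtype cells, where limma called none of the 10, 5 had an unadjusted p-value below 0.05, as did 1341 of all genes. Between dKO and wildtype cells 3 genes were called under vehicle, 2 under MTOB and 2 under 4-Cl-HIPP, against 4.83%, 4.95% and 4.72% of all genes.

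Without the fold limit, 4 of the 10 passed the adjusted p-value with MTOB in wildtype and 5 in dKO cells, against 7.26% and 6.58% of all genes. Between genotypes 6 passed under vehicle, 4 under MTOB and 4 under 4-Cl-HIPP, against 10.7%, 11.2% and 10.2%. With MTOB all samples lay above all vehicle samples for 6 of the 10 genes in wildtype and for 8 in dKO cells, as they did for 10.6% and 9.51% of all genes. With 4-Cl-HIPP this held for 3 in wildtype and 4 in dKO cells, against 7.65% and 8.01%, and 4 of the 10 lay below vehicle in wildtype cells, against 4.94%. The counts above vehicle in wildtype cells include Egr1 for each inhibitor, which was listed at 0 in all 3 vehicle samples and reached at most 0.145 TPM. Those above vehicle in dKO cells include Fosb for each inhibitor and Egr2 for MTOB. The count below vehicle in wildtype cells with 4-Cl-HIPP includes Fosb. Neither Fosb nor Egr2 was called with an inhibitor, and their mean normalized counts were 9.69 and 7.50. The comparisons share samples and are not independent of each other, since each vehicle group enters both inhibitor comparisons and a genotype comparison.

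**Figure D2:**
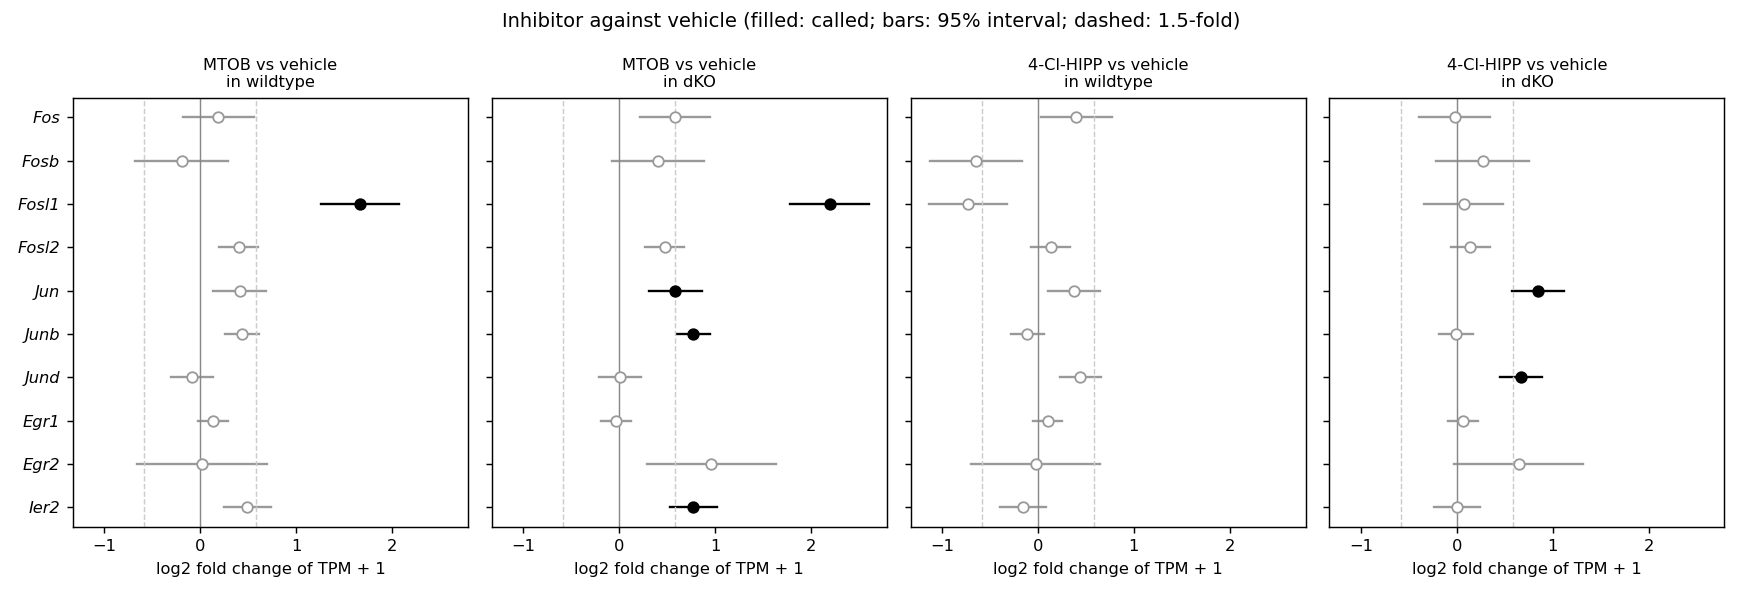
Log2 fold change of TPM + 1 (horizontal axis) of each gene with MTOB or 4-Cl-HIPP against vehicle in wildtype and dKO cells, with 95% intervals, filled where called and with dashed lines at 1.5-fold. Fosl1 with MTOB lies farthest to the right in both genotypes (1.67 and 2.19), and Jun and Jund are the filled points for 4-Cl-HIPP in dKO cells.

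The 220 bases before the annotated start of Jun, Jund and Ier2 are shown because these were the 3 of the 8 members searched that held an element of the kind marked below. They were read from GRCm39 at chr4:94940460-94940679 (minus strand), chr8:71151379-71151598 (plus strand) and chr8:85389484-85389703 (minus strand), 5′ to 3′, ending at the base before the start. Capitals mark matches on either strand to TGACATCA, the AP-1 and ATF element known from the Jun promoter, or to TGACGTCA, the cAMP response element.
Jun: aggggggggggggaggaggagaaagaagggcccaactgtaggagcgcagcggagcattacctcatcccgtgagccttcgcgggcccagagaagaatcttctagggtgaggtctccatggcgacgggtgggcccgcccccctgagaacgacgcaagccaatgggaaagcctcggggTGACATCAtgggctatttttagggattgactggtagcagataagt
Jund: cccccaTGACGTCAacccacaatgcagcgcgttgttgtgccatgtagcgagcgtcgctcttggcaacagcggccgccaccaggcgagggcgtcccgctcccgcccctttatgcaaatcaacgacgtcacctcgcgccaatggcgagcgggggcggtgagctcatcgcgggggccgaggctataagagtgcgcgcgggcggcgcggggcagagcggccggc
Ier2: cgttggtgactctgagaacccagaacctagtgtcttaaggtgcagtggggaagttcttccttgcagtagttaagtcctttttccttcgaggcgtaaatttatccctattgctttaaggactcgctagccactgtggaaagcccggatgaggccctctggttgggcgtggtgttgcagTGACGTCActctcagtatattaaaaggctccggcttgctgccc

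Within 250 bases before the start, Jun held TGACATCA beginning 45 bases upstream, Jund held TGACGTCA 214 bases upstream, and Ier2 held TGACGTCA 43 bases upstream. Fos, Fosb, Fosl2, Junb and Egr2 held neither element in this window. A link between these elements and the calls was not tested. Of 21770 promoters of the same length, 2.61% held TGACATCA and 1.69% held TGACGTCA. Egr2 held a CArG box, the element bound by serum response factor, 65 bases upstream, as did 1.40% of promoters. The AP-1 element TGACTCA, present in 4.02% of promoters, and the EGR element GCGTGGGCG, present in 0.547%, matched 0 of the 8 members searched. Egr1 and Fosl1 are left out of this search. A match is a run of letters and not evidence of binding.

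Fosl1, which encodes the FOS-related protein FRA1, had the largest log2 fold change of the 10 genes in any comparison and was the 1 member called with MTOB in both genotypes. In wildtype cells it was at 4.59, 6.97 and 5.79 TPM with vehicle and at 18.8, 19.7 and 22.7 TPM with MTOB. In dKO cells it was at 4.30, 6.07 and 6.85 TPM with vehicle and at 37.1, 26.5 and 25.9 TPM with MTOB. No MTOB sample overlapped with a vehicle sample, and the gap between them was wider than the range of either vehicle group. The mean rose 3.52-fold in wildtype cells (log2 fold change 1.67, SE 0.19, adjusted p = 4.38e-05, limma) and 5.20-fold in dKO cells (2.19, SE 0.19, adjusted p = 2.87e-06). The difference between these effects, wildtype minus dKO, was -0.53 (95% interval -1.11 to 0.05, adjusted p = 0.747, limma), so that the effect in dKO cells was not shown to differ from that in wildtype cells.

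With 4-Cl-HIPP, Fosl1 showed no such increase. The 3 wildtype samples were at 2.16, 3.68 and 3.47 TPM, all below the vehicle samples, and the change of -0.73 (SE 0.19) was not called (adjusted p = 0.175, limma). The 3 dKO samples, at 6.47, 6.43 and 5.15 TPM, lay within the range of vehicle (0.07, SE 0.19). Under 4-Cl-HIPP Fosl1 was therefore higher in dKO than in wildtype cells, by 0.79 (SE 0.19, adjusted p = 0.0133, limma), a call that needed wildtype 4-Cl-HIPP replicate 1 and dKO 4-Cl-HIPP replicates 1 and 2 (adjusted p up to 0.0745 without them) and was lost when these groups were fitted alone (adjusted p = 0.0694). Under vehicle the mean of wildtype samples was 5.78 ± 1.19 TPM (SD, n = 3) and that of dKO samples 5.74 ± 1.31 TPM (SD, n = 3), with a 95% interval of the difference of -0.42 to 0.40 on the log2 scale. Doses of the inhibitors differed, so their effects stand side by side here without a test between them.

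Fos, the founding member of the family and a strong activator of transcription, differed mainly by genotype. Under vehicle it was at 6.87, 6.28 and 8.23 TPM in wildtype and at 14.4, 12.8 and 18.4 TPM in dKO cells. With MTOB the values were 8.34, 7.93 and 8.41 TPM in wildtype and 24.4, 23.6 and 21.3 TPM in dKO cells. Every dKO sample exceeded every wildtype sample of the same treatment in these groups, and Fos was 2.14-fold higher under vehicle (log2 fold change 0.99, SE 0.17, adjusted p = 0.00101, limma) and 2.81-fold higher under MTOB (1.38, SE 0.17, adjusted p = 4.40e-05). Under 4-Cl-HIPP the dKO samples were at 15.1, 15.1 and 14.3 TPM and the wildtype samples at 13.8, 7.19 and 9.02 TPM, where the first wildtype value stood apart from the others and the difference of 0.57 (SE 0.17, adjusted p = 0.0492, limma) stayed below 1.5-fold. The genotype call under vehicle and under MTOB held whichever of the 18 samples was left out. With MTOB the log2 fold change of Fos was 0.19 (SE 0.17) in wildtype and 0.58 (SE 0.17, adjusted p = 0.0584, limma) in dKO cells, short of a call.

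Fosl2, which encodes FRA2, moved in small and regular steps. It was at 5.25 to 6.52 TPM with vehicle and at 7.09 to 9.02 TPM with MTOB in wildtype cells, and at 7.50 to 8.11 TPM and 10.5 to 12.5 TPM in dKO cells. The groups did not overlap in either genotype, and the log2 fold changes of 0.40 (SE 0.10, adjusted p = 0.0171, limma) and 0.48 (SE 0.10, adjusted p = 0.00600) passed the adjusted limit without reaching 1.5-fold. Fosl2 was also higher in dKO than in wildtype cells by 0.39 under vehicle, 0.47 under MTOB and 0.40 under 4-Cl-HIPP (adjusted p = 0.0136 or less, limma), again below 1.5-fold. With 4-Cl-HIPP the changes were 0.13 and 0.14 (SE 0.10), and 0 of both passed the limit.

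Fosb, a close relative of Fos, was scarce throughout. Wildtype vehicle samples were at 1.58, 0.912 and 0.714 TPM and dKO vehicle samples at 0.210, 0.108 and 0.177 TPM. The difference of -0.81 (SE 0.23, adjusted p = 0.0309, limma) was called, but the call was lost without wildtype vehicle replicate 1 or 2 or any of the 3 dKO vehicle samples (adjusted p up to 0.144), with a replicate block (adjusted p = 0.0513) and with these groups fitted alone (adjusted p = 0.0640). MTOB samples scattered from 0.222 to 1.42 TPM in wildtype and from 0.263 to 0.731 TPM in dKO cells. The log2(TPM + 1) scale understates the change of genes at this level.

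Junb, a JUN protein that can oppose JUN itself and is prominent in activated macrophages, was the most abundant of the 10 genes in wildtype cells with vehicle or MTOB. In wildtype cells it was at 93.8, 88.7 and 86.6 TPM with vehicle and at 115, 126 and 124 TPM with MTOB. In dKO cells it was at 83.5, 69.3 and 80.6 TPM with vehicle and at 144, 131 and 126 TPM with MTOB. The MTOB samples lay above the vehicle samples in each genotype, by 0.44 on the log2 scale in wildtype cells (SE 0.08, adjusted p = 0.00351, limma), which is below 1.5-fold. In dKO cells Junb rose by 0.78 (SE 0.08, adjusted p = 2.35e-05, limma), and the call held whichever sample was omitted. Among the 10 genes the difference between the MTOB effects had its smallest unadjusted p-value here, with -0.34 (95% interval -0.59 to -0.09, adjusted p = 0.561, limma). With 4-Cl-HIPP Junb was at 77.9 to 85.7 TPM in wildtype and 68.1 to 82.5 TPM in dKO cells, within 0.11 of vehicle on the log2 scale.

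Jun, the classical AP-1 partner of Fos and an activator of its own gene, had lower levels in dKO cells under vehicle. The wildtype vehicle samples were at 26.2, 23.4 and 21.1 TPM and the dKO vehicle samples at 14.4, 10.0 and 14.5 TPM. The mean in dKO cells was 0.550 times that in wildtype cells (log2 fold change -0.83, SE 0.13, adjusted p = 0.000382, limma), and the call held in all 18 omissions. Both inhibitors gave higher values in dKO cells, at 21.4, 18.1 and 19.9 TPM with MTOB and at 23.6, 22.0 and 26.1 TPM with 4-Cl-HIPP. Jun thus rose 1.53-fold with MTOB (0.59, SE 0.13, adjusted p = 0.0112, limma) and 1.84-fold with 4-Cl-HIPP (0.85, SE 0.13, adjusted p = 0.00652). The MTOB call was at the fold limit and was lost without dKO vehicle replicate 2 or dKO MTOB replicate 1 or 3, where the log2 fold change was as low as 0.42. With dKO vehicle and inhibitor samples fitted alone, neither call held (adjusted p = 0.156 for MTOB and 0.232 for 4-Cl-HIPP). With 4-Cl-HIPP the 3 dKO samples reached the range of the wildtype vehicle samples.

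In wildtype cells Jun was at 27.5, 34.8 and 33.0 TPM with MTOB and at 28.9, 30.8 and 32.9 TPM with 4-Cl-HIPP, each above all vehicle samples. The changes of 0.41 (SE 0.13, adjusted p = 0.0699) and 0.38 (SE 0.13, adjusted p = 0.386) were not called by limma. Wildtype minus dKO, the 4-Cl-HIPP effect on Jun differed by -0.47 (95% interval -0.86 to -0.08), which did not pass adjustment over all genes. Between genotypes Jun was also lower in dKO cells under MTOB (-0.65, SE 0.13, adjusted p = 0.00291, limma), a call lost without wildtype MTOB replicate 2, whereas under 4-Cl-HIPP the difference was -0.36 (SE 0.13, adjusted p = 0.106).

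Jund, the JUN protein known for steady expression in resting cells, rose with 4-Cl-HIPP in dKO cells and was not called with MTOB. In dKO cells it was at 78.6, 80.4 and 83.1 TPM with vehicle, at 97.5, 71.2 and 77.2 TPM with MTOB and at 144, 116 and 128 TPM with 4-Cl-HIPP. In wildtype cells it was at 59.5, 57.8 and 64.2 TPM with vehicle, at 51.9, 60.6 and 58.0 TPM with MTOB and at 85.0, 84.0 and 78.8 TPM with 4-Cl-HIPP. All 4-Cl-HIPP samples lay above all vehicle and MTOB samples of their genotype. In dKO cells Jund rose 1.60-fold with 4-Cl-HIPP (0.67, SE 0.10, adjusted p = 0.00652, limma), a call lost with these groups fitted alone (adjusted p = 0.120). In wildtype cells the mean was 1.37 times that of vehicle (0.44, SE 0.10, adjusted p = 0.0998, limma), which was not called. The difference of these effects was -0.22 (95% interval -0.53 to 0.09), and with MTOB the log2 fold changes were -0.09 and 0.01 (SE 0.10).

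Jund was also higher in dKO than in wildtype cells in each treatment. The log2 fold change was 0.41 under vehicle (SE 0.10, adjusted p = 0.0153, limma), 0.51 under MTOB (adjusted p = 0.00322) and 0.63 under 4-Cl-HIPP (adjusted p = 0.000548), and the groups did not overlap in any of the 3. Only the last exceeded 1.5-fold, and this call was lost without dKO 4-Cl-HIPP replicate 1 (0.55). Jun and Jund therefore stood on opposite sides of the genotype comparison under vehicle, with Jun lower and Jund higher in dKO cells.

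**Figure D3:**
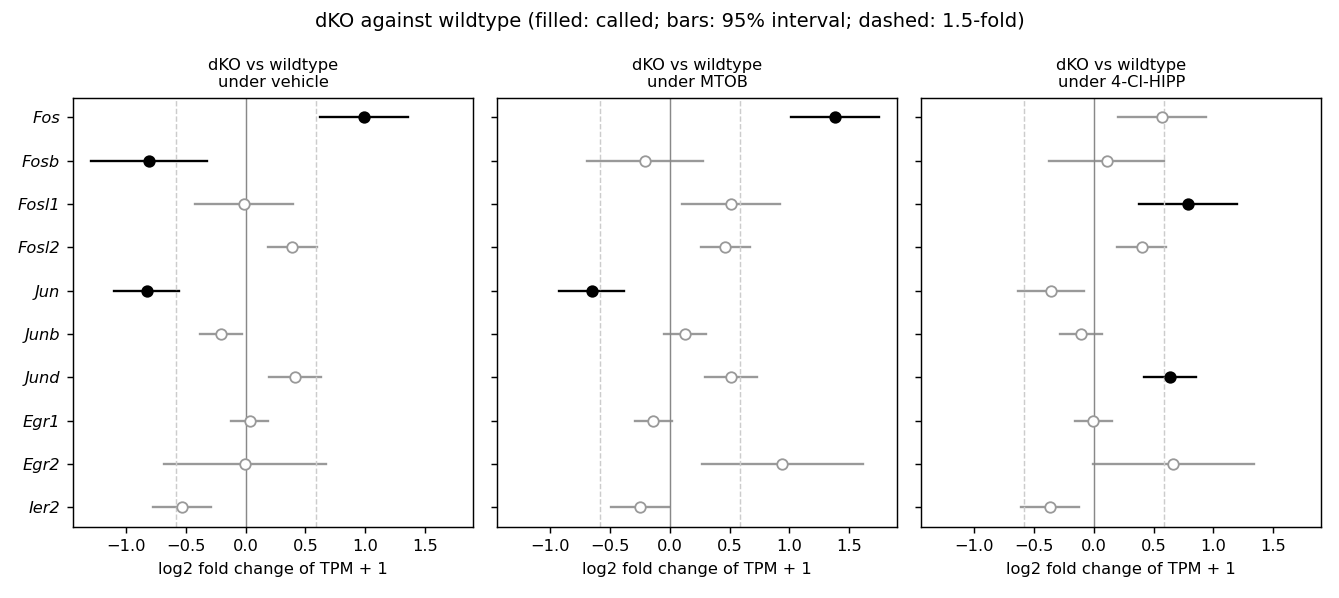
Log2 fold change of TPM + 1 (horizontal axis) of each gene in dKO against wildtype cells under vehicle, MTOB and 4-Cl-HIPP, with 95% intervals, filled where called and with dashed lines at 1.5-fold. Fos lies to the right (0.99, 1.38 and 0.57) and Jun to the left (-0.83, -0.65 and -0.36) in each panel.

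Ier2, which encodes a short nuclear protein induced by serum and growth factors, rose with MTOB in dKO cells. It was at 27.8, 26.5 and 27.9 TPM with vehicle and at 33.6, 42.4 and 41.5 TPM with MTOB in wildtype cells. In dKO cells it was at 18.5, 16.9 and 20.9 TPM with vehicle and at 36.8, 26.9 and 35.3 TPM with MTOB. Each MTOB sample exceeded the vehicle samples of its genotype, with a 1.76-fold rise in dKO cells (0.77, SE 0.11, adjusted p = 0.000509, limma) and a change of 0.49 in wildtype cells (SE 0.11, adjusted p = 0.0141) that stayed below 1.5-fold. The rise in dKO cells held whichever sample was omitted and was lost with its groups fitted alone (adjusted p = 0.0746). Under vehicle the dKO samples lay below the wildtype samples, with a change of -0.53 (SE 0.11, adjusted p = 0.00540, limma), short of 1.5-fold. With 4-Cl-HIPP it was at 23.5 to 25.4 TPM in wildtype and 18.1 to 19.4 TPM in dKO cells, changes of -0.16 and 0.00 (SE 0.11).

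Egr1 and Egr2, zinc finger factors that bind GC-rich sites, were near the lower limit of the measurement. Egr1 was listed at 0 in 9 of the 18 samples, among them all 3 wildtype vehicle and all 3 dKO MTOB samples, and its highest value was 0.145 TPM. Egr2 was at 0.464, 0.204 and 0.181 TPM in wildtype vehicle, 0.277, 0.361 and 0.242 TPM in wildtype MTOB and 0.0736, 0.407 and 0.367 TPM in dKO vehicle samples. In dKO cells with MTOB it was at 0.767, 1.39 and 2.63 TPM, above all vehicle samples, and with 4-Cl-HIPP at 1.85, 0.0768 and 1.58 TPM, where 1 sample lay as low as vehicle. The log2 fold changes in dKO cells of 0.96 (SE 0.32, adjusted p = 0.0896) and 0.65 (SE 0.32, adjusted p = 0.615) were not called by limma. No fold change is given for Egr1.

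Of the 10 genes, 5, namely Fosl1, Fosl2, Jun, Junb and Ier2, had all MTOB samples above all vehicle samples in both genotypes, against 4.23% of the genes tested. The median log2 fold change of the 10 genes with MTOB was 0.30 in wildtype and 0.58 in dKO cells, against -0.01 for all genes in each. With 4-Cl-HIPP the medians were 0.04 and 0.11, against 0.01 and 0.00. Because the 10 genes were chosen with earlier results of these data known, these contrasts with all genes are descriptions. The difference between the MTOB effects, wildtype minus dKO, had a median of -0.31 over the 10 genes, against 0.01 over all genes. However, 0 of the 10 differences passed adjustment over all genes (limma), where 0.0916% of all genes passed. For 1 of the 10 the unadjusted p-value was below 0.05, as it was for 1128 of all genes. For 4-Cl-HIPP 3 of the 10 differences, those of Fosl1, Fosb and Jun, had an unadjusted p-value below 0.05, and 0 of the 16383 genes passed adjustment by limma, with 734 below 0.05 unadjusted and 2 past adjustment when only the compared groups were fitted.

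Because TPM are comparable between genes, the make-up of each family could be followed. Fosl1 held 29.3% ± 6.25 (SD, n = 3) of the summed FOS family TPM in wildtype vehicle samples and 54.5% ± 0.790 (SD, n = 3) with MTOB. In dKO cells its share was 19.8% ± 3.47 (SD, n = 3) with vehicle and 45.8% ± 4.59 (SD, n = 3) with MTOB, and the MTOB range of 42.9% to 51.1% lay above all vehicle samples. The share of Fos was 36.1% ± 4.31 (SD, n = 3) in wildtype vehicle samples and 52.4% ± 3.53 (SD, n = 3) in those of dKO cells, and with MTOB it was 22.1% and 35.8%. The summed FOS family level was 19.7 TPM with vehicle and 37.4 TPM with MTOB in wildtype cells, and 28.9 TPM and 64.8 TPM in dKO cells, and thus it remained well below that of the JUN family.

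With vehicle the JUN family summed to 174 ± 5.10 TPM (SD, n = 3) in wildtype cells, whereas its total in dKO cells was 171 ± 10.3 TPM (SD, n = 3), made up of other shares. Jund made up 34.8% of it in wildtype and 47.2% in dKO cells, Junb 51.6% and 45.3%, and Jun 13.6% and 7.52%. With MTOB the share of Junb was 57.9% in wildtype and 56.9% in dKO cells. With 4-Cl-HIPP Jund reached 42.0% in wildtype and 56.0% in dKO cells, and Junb stood at 42.3% and 33.6%. These shares are descriptions of mRNA level and were not tested.

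**Figure D4:**
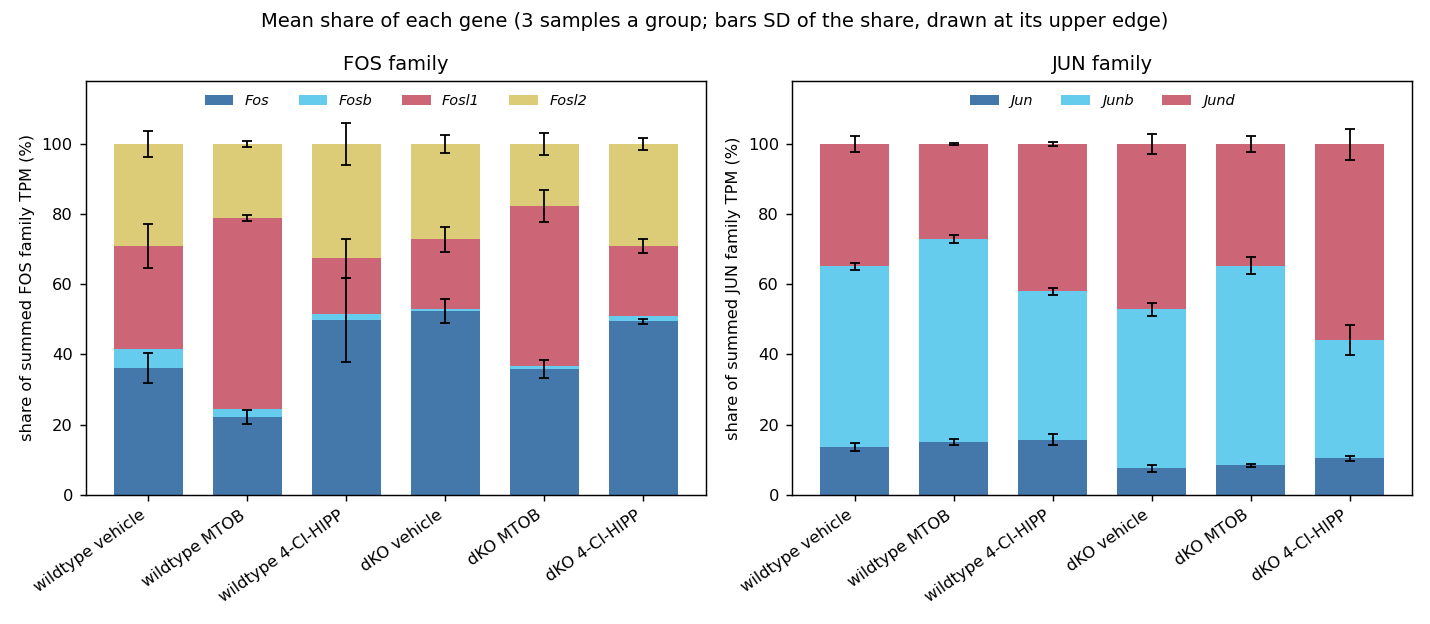
Mean share (%) of each gene in the summed TPM of the FOS family (left) and the JUN family (right) for the 6 groups, with bars of 1 SD of the share over 3 samples drawn at its upper edge. Fosl1 takes 54.5% and 45.8% of the FOS family in the MTOB groups, and Jund takes 56.0% of the JUN family in dKO cells with 4-Cl-HIPP.

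Some members lie in loci shared with other genes, and the library did not keep the strand. In the GRCm39 annotation (Gencode M39), Jun (ENSMUSG00000052684, chr4:94937271-94940459, minus strand) overlaps the antisense gene Junos, and Jund (ENSMUSG00000071076, chr8:71151599-71153265, plus strand) overlaps Gm11175 on the other strand. Junos was listed at up to 2.76 TPM and Gm11175 at up to 3.14 TPM, small beside Jun and Jund. Fosl1 (ENSMUSG00000024912) overlaps Ccdc85b on the other strand, which was listed at 4.66 to 7.10 TPM over all samples, MTOB samples included. Junb (ENSMUSG00000052837, chr8:85701113-85705359, minus strand) overlaps Prdx2, listed at 184 to 269 TPM. For these pairs, reads from overlapping parts cannot be assigned by strand.

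The wider network was read from lists written from general knowledge, but chosen with earlier results of these data known. Among 22 tested AP-1 and EGR target genes, MTOB raised 11 and lowered 1 in wildtype cells and raised 12 in dKO cells. Over all genes, increases made up 1.56% and 1.15%, and calls in either direction 2.01% and 1.63%. The median log2 fold change of the 22 was 0.63 in wildtype and 0.70 in dKO cells, against -0.01 for all genes in each. The called genes with the smallest p-values were the same 4 in both genotypes, Hmox1 (heme oxygenase 1, 2.10 and 2.24), Spp1 (osteopontin, 1.57 and 1.07), Sqstm1 (an autophagy receptor, 1.21 and 1.08) and Tnf (1.39 and 1.24). All of these have other known activators besides AP-1. With 4-Cl-HIPP 0 of the 22 were called in wildtype cells by limma, against 0.140% of all genes. In dKO cells the chemokine genes Ccl3 (-0.83, adjusted p = 0.00148, limma) and Ccl4 (-1.12, adjusted p = 0.0352) were called lower, against calls for 0.153% of all genes. Over all genes, the calls in this dKO comparison went from 25 to 7 when just the compared groups were fitted. Ccl4 was at a mean of 9.75 TPM with vehicle and 4.02 TPM with 4-Cl-HIPP. Between genotypes 2 of the 22 were higher and 1 lower in dKO cells under vehicle, 3 and 4 under MTOB, and 3 and 3 under 4-Cl-HIPP, where 4.83%, 4.95% and 4.72% of all genes were called in either direction, with Vim (vimentin) higher by 1.14 and Tnf lower (-0.70) under vehicle.

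Of 30 tested other immediate early genes, 6 rose with MTOB in wildtype and 4 in dKO cells, where 1.56% and 1.15% of all genes rose, and 0 fell. In wildtype cells the leading ones were Ets2 (1.12), Ier3 (1.31), Trib1 (0.67) and Dusp2 (0.64), and in dKO cells Ier3 (1.88), Dusp2 (0.78), Arc (0.61) and Gadd45b (0.93). The median of the list was 0.25 in wildtype and 0.26 in dKO cells, against -0.01 for all genes in each. With 4-Cl-HIPP 0 of the 30 were called by limma in either genotype, against 0.140% and 0.153% of all genes, with medians of 0.00 and 0.02. Ets2, an ETS family factor downstream of MAP kinases, was the 1 gene of the 30 called for the difference between MTOB effects (0.63, SE 0.10, adjusted p = 0.0318, limma). Of all genes, 0.0916% were called for this difference. These 15 calls became 6 without the variance trend and 8 with a replicate block. Ets2 was also lower in dKO than in wildtype cells under vehicle (-1.71, adjusted p = 3.06e-10, limma). Under vehicle Ier3 (-1.13) was lower as well, whereas the kinase gene Sgk1 (2.10) and Trib1 (0.77) were higher in dKO cells. Of the 30, 3 were called higher and 2 lower in dKO cells under vehicle. The counts were 4 and 1 under MTOB, and 4 and 2 under 4-Cl-HIPP. Over all genes, 4.83%, 4.95% and 4.72% were called in either direction.

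Among 14 tested bZIP genes that partner or compete with AP-1, Cebpd (1.04) and the small MAF gene Maff (0.91) rose with MTOB in wildtype and Maff (1.09) in dKO cells, where 1.56% and 1.15% of all genes rose. With 4-Cl-HIPP 0 of the 14 were called in either genotype (limma), against 0.140% and 0.153% of all genes. Jdp2, which encodes a JUN dimerization partner that represses AP-1, was higher in dKO than in wildtype cells under vehicle, at 70.1 against 44.9 TPM (0.64, SE 0.06, adjusted p = 2.54e-06, limma), under MTOB (0.83) and under 4-Cl-HIPP (0.76). It was the 1 gene of the 14 called between genotypes under vehicle and under 4-Cl-HIPP, where 4.83% and 4.72% of all genes were called. Under MTOB Cebpd was called as well, lower in dKO cells (-0.83), against 4.95% of all genes. A count of 1 of 14 is close to these shares. Of 32 tested kinases and factors upstream of these genes, which include the MAP kinases, RAF and RAS genes and the ETS factors of the serum response, 1 was called in any inhibitor or genotype comparison. It was Nab2, a corepressor of EGR proteins that is also among the 22 target genes, which rose with MTOB from 25.0 to 44.8 TPM in wildtype (0.82, adjusted p = 3.15e-05, limma) and from 19.8 to 42.4 TPM in dKO cells (1.07, adjusted p = 2.50e-06). Over all genes, MTOB calls made up 2.01% in wildtype and 1.63% in dKO cells, and genotype calls 4.72% to 4.95%, so 1 of 32 is close to the share with MTOB.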

How the data were processed

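RNA from 18 samples (3 per group) was analysed from 1 deposited gene table. Per the study's methods, the authors quantified transcripts with Salmon 1.9.0 on the GRCm39 Gencode transcriptome with GC correction and imported them per gene, and the deposited TPM of each sample sum to between 999770 and 999900. The authors also deposited a mean normalized count per gene, a signal made with DESeq2 1.44.0, which served here as filter and trend, and the samples that entered it are not given in the sources used here. The deposited log2 fold changes and adjusted p-values of the authors were not used. Because the values were TPM, the depth per sample is unknown and a count model was not used.

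Low genes were left out when their mean normalized count did not exceed the 10th percentile (0.222), and 16383 genes stayed. A linear model of log2(TPM + 1) with 6 group means was fitted to all samples (limma 3.58.1, R 4.3.3), gene variances were moderated along a trend of abundance, and p-values were adjusted over all genes of a comparison after Benjamini and Hochberg. A call required an adjusted p-value under 0.05 together with a change beyond 1.5-fold, and for a difference between genotypes in an effect only the former. The procedure was tested on simulated data, with changes set only in genes of higher counts than Fosb, Egr1 and Egr2. These changes were larger than 1.5-fold. The simulation therefore covers neither genes as low as these 3 nor calls at the fold limit. Alternatives were other pseudocounts, filters and scaling, no trend, fewer groups in the fit, a replicate block and omission of each sample. The members and lists were chosen with earlier results of these data known. Besides the 10 members and the targeted genes, up to 4 called genes per list and comparison were named, those with the smallest p-values, and the 3 genes most correlated with Fos, Jun and Egr1. Nothing in the labels ties samples to separate cultures beyond the replicate number, which the methods call biological, and p-values measure the spread between these samples. Promoters were read from GRCm39 before the start of the canonical transcript in Gencode M39, and plots were made in Python 3.11.15 (matplotlib 3.10.9). The promoter of Fosl1 is not reported here.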

Additional observations from a re-analysis of the deposited data

Results flagged for a closer look

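The Fosb samples with 4-Cl-HIPP lay on opposite sides of vehicle in the 2 genotypes, and limma called neither change (adjusted p = 0.407 in wildtype and 0.841 in dKO cells). In wildtype cells all 3 samples (0.170, 0.341 and 0.411 TPM) lay below all 3 vehicle samples (log2 fold change -0.64), and in dKO cells all 3 (0.372, 0.306 and 0.542 TPM) lay above all 3 vehicle samples (0.27). The difference, wildtype minus dKO, was -0.91 (SE 0.32, 95% interval -1.60 to -0.23). It had an unadjusted p = 0.0121 in limma and did not pass adjustment over all genes, and Fosb had a mean normalized count of 9.69.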

How the results depend on the processing

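Fosl1 with MTOB and Junb and Ier2 with MTOB in dKO cells, Jun and Jund with 4-Cl-HIPP in dKO cells, Jun under vehicle and Fos under vehicle and MTOB kept their calls in all 18 omissions of a sample. When each fit held just the groups it compared, which leaves fewer samples to estimate the spread, the members called were 2 in place of 4 for MTOB in dKO cells (Jun, adjusted p = 0.156, and Ier2, adjusted p = 0.0746, were lost), 0 in place of 2 for 4-Cl-HIPP in dKO cells (Jun, adjusted p = 0.232, and Jund, adjusted p = 0.120), and 1 in place of 2 for dKO against wildtype under 4-Cl-HIPP (Fosl1, adjusted p = 0.0694), and Fosb lost its call under vehicle (adjusted p = 0.0640). With the adjusted p-value alone, 4 members passed with MTOB in wildtype cells, and 6, 4 and 4 between genotypes under vehicle, MTOB and 4-Cl-HIPP. With omission of 1 sample, the members called ranged from 1 to 2 and from 0 to 0 for MTOB and 4-Cl-HIPP in wildtype cells, from 3 to 5 and from 2 to 2 in dKO cells, and from 2 to 3, 1 to 3 and 0 to 2 between genotypes under vehicle, MTOB and 4-Cl-HIPP, with 0 for both differences of effects. Replicate numbers were shared between groups but did not pair the samples (correlation of deviations between same-numbered samples -0.141 to 0.0909 over 45 pairs). With a replicate block, Fosb under vehicle was lost (-0.81, adjusted p = 0.0513) and no other member changed its call. Fos was called with MTOB in dKO cells under median-ratio scaling (0.61, adjusted p = 0.0477) and between genotypes under 4-Cl-HIPP with pseudocounts of 0.1 and 0.5 (0.61 and 0.59). No called member changed its direction under any of the 27 alternatives, except that Fosb was not tested with a minimum mean normalized count of 10, which it did not reach.

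Over all genes, the counts with the adjusted p-value alone were 1189 in place of 329 and 60 in place of 23 for MTOB and 4-Cl-HIPP in wildtype cells, 1078 in place of 267 and 82 in place of 25 in dKO cells, and 1757, 1829 and 1676 between genotypes. With just the compared groups they were 15, 135 and 7 for 4-Cl-HIPP in wildtype and MTOB and 4-Cl-HIPP in dKO cells. For the difference of the MTOB effects, 15 genes became 6 without the trend and 8 with the block. Without 1 sample the counts for 4-Cl-HIPP ranged from 9 to 25 in wildtype and from 12 to 31 in dKO cells, and those for the difference of the MTOB effects from 7 to 20. For the difference of the 4-Cl-HIPP effects, 0 genes became 2 with just the compared groups and ranged from 0 to 3 without 1 sample.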

Other observations

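Over the 18 samples, the log2(TPM + 1) of Fos was most like that of Rsad2 (Pearson r = 0.93), Slc9a3r2 (0.93) and Prr13 (0.92) among 11034 genes, those whose mean normalized count reached 10. Rsad2, an interferon-induced antiviral gene, was at 0.0448 TPM with vehicle and 0.105 TPM with MTOB in wildtype and at 3.48 TPM and 8.46 TPM in dKO cells. The profile of Jun was most like that of Hnrnph2 (0.88), Mrpl33 (0.86) and Resf1 (0.86). The profile of Egr1 was most like that of Rpain (0.82), Pex11a (0.75) and Fbrsl1 (0.71), but Egr1 was listed at 0 in 9 of the 18 samples. For Fosl1, a gene added after its values were seen, the leading genes were the actin genes Actb (0.98) and Actg1 (0.97) and the ferritin gene Ftl1 (0.96). Actg1 was at 664 TPM with vehicle and 1449 TPM with MTOB in wildtype cells and at 807 TPM and 1695 TPM in dKO cells. These values describe likeness across samples that fall into 6 groups, and were not tested.

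Among the 10 genes themselves, the pairs most alike were Fosl1 with Junb (0.87) and Junb with Ier2 (0.86), and those most opposed were Jund with Ier2 (-0.62) and Fos with Jun (-0.51), over the same 18 samples.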
